A study of Mus musculus with 18 samples.

Results

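The genes described here are 10 mouse genes for chemokines and cytokines that epithelial cells can make, namely Cxcl1, Cxcl5, Cxcl16, Ccl20, Ccl25, Ccl28, Il18, Il33, Il1rn and Tslp. They were taken by gene symbol from a table of 56748 genes, and all 10 were found. RNA came from organoids, epithelial cultures grown from the colon, in 18 bulk poly-A libraries. Organoids of the proximal, mid or distal colon were kept in differentiation medium or in ENR with Wnt3a-conditioned medium, the control in which they proliferate. The media were applied 3 days after passaging, and each of the 6 groups of region and medium held 3 libraries. Strain, age and genotype of the mice are not given in the sources used here, nor is whether the replicates came from separate animals, so p-values measure the spread between these libraries only. Levels are in FPKM, fragments scaled by the authors to gene length and library size, and can be compared between genes. Fold changes are differences of log2(FPKM + 1), which understates changes of genes with low values. A gene is called changed where the adjusted p of limma, with Benjamini-Hochberg adjustment over the 12896 genes tested, was under 0.05. Of the 10 genes 9 passed the filter of at least 1 FPKM in at least 3 libraries, and Tslp did not.

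Chemokines are small secreted proteins that draw leukocytes carrying the matching receptor. In the gut, epithelial cells place them as signals for lymphocytes, neutrophils and plasma cells. IL-18 and IL-33 are cytokines of the IL-1 family that epithelial cells store, IL-18 as a precursor that caspase-1 cleaves and IL-33 as a nuclear protein released on damage. The product of Il1rn blocks the IL-1 receptor, and TSLP acts on dendritic cells and lymphocytes.

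Recovered depth was 12827751 to 19938198 reads per library, and replicates of a group correlated over genes at r = 0.9533 to 0.9896. On the first principal component (63.47% of variance) proximal differentiation replicate 1 lay at 5.8, against 44.08 and 37.91 for its 2 replicates, and distal differentiation replicate 3 at 48.13, against 81.32 and 68.89. The 8 epithelial markers summed to 3412 to 10278 FPKM. Of 12 immune markers 10 stayed below 1 FPKM in every library and Cd4 and Adgre1 were among those at 0. Endothelial markers stayed below 1 FPKM (5 of 5), as did 7 of 8 fibroblast markers and 5 of 6 tuft cell markers, with Il25 and Gnat3 at 0. Among the fibroblast markers Pdgfrb was the exception, and Col1a2, Lum and Thy1 were at 0. In bulk RNA, fewer cells of a type and less RNA per cell cannot be told apart.

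The sequences of 4 promoters are shown because Il18 and Ccl28 moved together and because Cxcl1 and Ccl20 hold an NF-kappaB motif. They are the 250 bases before the RefSeq gene start on GRCm38.p6, on the plus strand, for Il18 chr9:50554450-50554699, for Ccl28 chr13:119623569-119623818, for Cxcl1 chr5:90890995-90891244 and for Ccl20 chr1:83116516-83116765. Both strands were searched, and capitals mark matches to the NF-kappaB consensus (Cxcl1 and Ccl20) or to TATAAA (Il18).
Il18: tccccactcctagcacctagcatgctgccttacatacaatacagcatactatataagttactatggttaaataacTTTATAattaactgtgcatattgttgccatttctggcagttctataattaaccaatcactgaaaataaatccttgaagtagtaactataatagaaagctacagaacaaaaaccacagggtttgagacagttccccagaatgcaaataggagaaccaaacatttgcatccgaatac
Ccl28: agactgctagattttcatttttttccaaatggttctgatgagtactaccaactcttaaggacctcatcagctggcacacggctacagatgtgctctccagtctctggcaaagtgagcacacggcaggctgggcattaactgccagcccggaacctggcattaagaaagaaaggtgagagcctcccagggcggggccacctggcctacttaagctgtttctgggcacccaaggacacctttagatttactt
Cxcl1: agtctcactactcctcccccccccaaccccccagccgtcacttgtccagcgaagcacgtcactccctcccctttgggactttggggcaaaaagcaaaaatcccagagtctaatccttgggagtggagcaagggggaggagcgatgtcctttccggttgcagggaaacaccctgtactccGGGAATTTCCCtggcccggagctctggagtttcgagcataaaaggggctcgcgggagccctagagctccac
Ccl20: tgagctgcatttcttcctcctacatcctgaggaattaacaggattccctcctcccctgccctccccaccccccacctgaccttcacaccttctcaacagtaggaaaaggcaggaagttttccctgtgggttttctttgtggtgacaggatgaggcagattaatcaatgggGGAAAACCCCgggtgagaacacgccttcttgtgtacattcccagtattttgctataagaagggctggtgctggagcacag
The capitals in Cxcl1 begin 71 bases before the start and cover 2 overlapping matches, one on each strand. The match in Ccl20 begins 80 bases before the start, on the minus strand. Among 32851 such promoter windows of the genome, 7.25% held the NF-kappaB motif and 12.4% held TATAAA. RefSeq windows were matched for 7 of the 10 genes. A match describes the letters of a window and is not a binding site.

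Il18 and Ccl28 rose with differentiation in mid and distal organoids and were higher there than in proximal organoids in both media. Il18, on chromosome 9 (50466127 to 50493140, mm39), reached 169, 176 and 159 FPKM in the 3 mid differentiation libraries, against 41.8, 43.1 and 53.5 FPKM in mid control libraries. In distal organoids it had 99.1, 166 and 161 FPKM in differentiation medium, against 53.4, 43.3 and 48.2 FPKM in control medium. In proximal organoids it had 19.0, 12.7 and 19.95 FPKM in differentiation medium, against 17.1, 17.8 and 18.7 FPKM in control medium. The media separated without overlap in mid and distal organoids, while the proximal libraries overlapped. The log2 fold change of differentiation over control was 1.85 ± 0.19 (SE, adjusted p = 1.1e-06) in mid and 1.51 ± 0.19 (adjusted p = 8.4e-06) in distal organoids, and -0.07 ± 0.19 (adjusted p = 0.76) in proximal organoids. The response differed from the proximal one by 1.92 ± 0.27 log2 units in mid (adjusted p = 0.00031) and by 1.58 ± 0.27 in distal organoids (adjusted p = 0.0017). In every alternative setting Il18 kept these 4 calls.

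Il18 also differed between regions within each medium. In differentiation medium it averaged 168 ± 8.81 FPKM in mid and 142 ± 37.3 FPKM in distal organoids, against 17.2 ± 3.94 FPKM in proximal organoids (SD, n = 3 each). The mid mean was 9.76 times and the distal mean 8.25 times the proximal mean. In control medium mid organoids averaged 46.1 ± 6.43 FPKM and distal organoids 48.3 ± 5.05 FPKM, against 17.9 ± 0.816 FPKM in proximal organoids, 2.58 and 2.70 times the proximal mean. All 4 of these differences from proximal organoids were called (log2 3.24, 2.96, 1.31 and 1.38, adjusted p 5.1e-09, 1.3e-08, 0.00021 and 0.00012). Ordered by mean, mid and distal differentiation came first and overlapped, distal and mid control followed and overlapped, and both proximal groups came last and overlapped. Il18 shares 355 bases of its gene with Bco2 and contains Tex12, both on the opposite strand, and the labels do not settle whether these libraries were stranded. Bco2 averaged 10.8, 11.1 and 3.66 FPKM in mid, distal and proximal differentiation libraries, against 6.06, 6.49 and 4.19 FPKM in the controls. Tex12 averaged 2.44, 1.80 and 0.144 FPKM in the same order, against 0.991, 0.991 and 0.281 FPKM. The part of both genes in the Il18 values was not tested.

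Ccl28, the ligand of CCR10 and CCR3 that draws IgA plasma cells to mucosa, was close to absent in proximal organoids. It lies on chromosome 13 (120085355 to 120115895, mm39). Mid organoids had 31.4, 28.6 and 21.7 FPKM in differentiation medium, against 11.4, 9.70 and 9.39 FPKM in control medium. Distal organoids had 20.8, 34.2 and 28.3 FPKM in differentiation medium, against 7.503, 7.31 and 6.45 FPKM in control medium. Proximal organoids had 0.958, 0.774 and 1.05 FPKM in differentiation medium, against 0.797, 0.325 and 0.247 FPKM in control medium. No proximal library came near any mid or distal library, and the media overlapped in proximal organoids only. Ccl28 rose with differentiation in mid (log2 1.33 ± 0.18, adjusted p = 1.5e-05) and distal organoids (1.81 ± 0.18, adjusted p = 9.7e-07), and the proximal difference was 0.42 ± 0.18 (adjusted p = 0.058). With a pseudocount of 0.1 the proximal difference was called (adjusted p = 0.0070), as it was on leaving out proximal control replicate 1 (adjusted p = 0.016), distal differentiation replicate 1 (0.032) or 2 (0.043), or mid differentiation replicate 3 (0.046). Distal and mid organoids were 30.0 and 29.4 times the proximal mean in differentiation medium and 15.5 and 22.3 times in control medium, all called (log2 3.88, 3.86, 2.49 and 2.95).

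The response of Ccl28 exceeded the proximal one by 1.38 ± 0.25 in distal (adjusted p = 0.0030) and 0.91 ± 0.25 in mid organoids (adjusted p = 0.030). Neither difference was called with a pseudocount of 0.1 (0.93, adjusted p = 0.18, and 0.40, adjusted p = 0.57) or with voom on recovered reads (0.71, adjusted p = 0.50, and 0.19, adjusted p = 0.87). The mid difference was also not called scaled to summed reads (0.61, adjusted p = 0.21) or without the filter (adjusted p = 0.059). Leaving out any 1 of 6 libraries ended the mid call as well (adjusted p 0.057 to 0.078). These were mid control replicates 2 and 3, mid differentiation replicates 1 and 2, proximal control replicate 1 and proximal differentiation replicate 2. As ratios of means, differentiation over control was 3.92 in distal, 2.68 in mid and 2.03 in proximal organoids. Across the 18 libraries Ccl28 and Il18 correlated at r = 0.96 on the log2 scale, a description over libraries that share 6 groups.

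**Figure D1:**
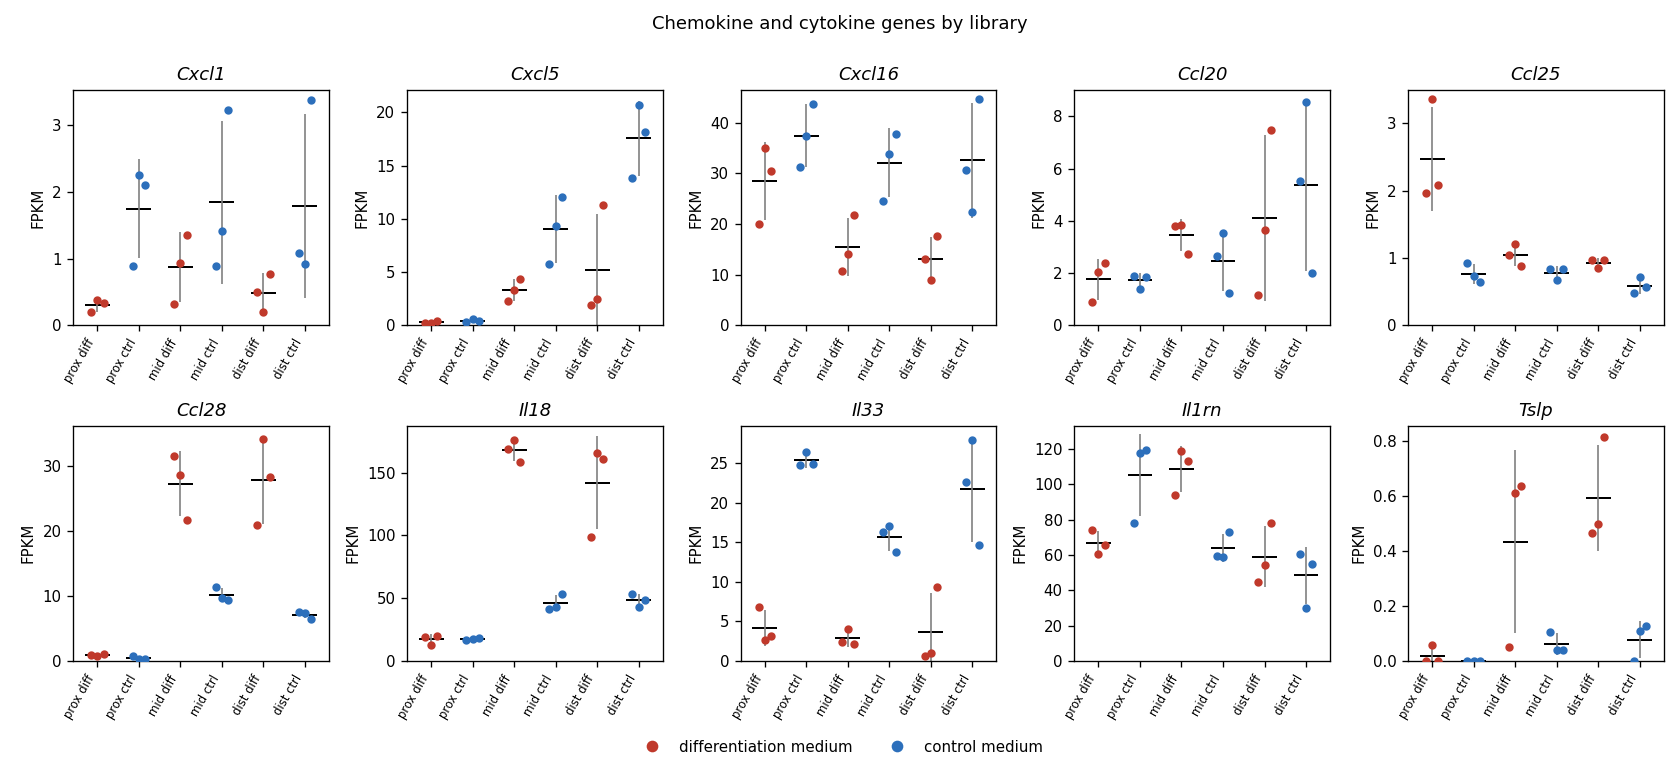
FPKM of each of the 10 genes in the 18 libraries, by region (prox, mid, dist) and medium (diff, differentiation; ctrl, control). Points are libraries, horizontal lines means and grey bars SD with n = 3, not drawn below 0. Il18 and Ccl28 stand high in mid and distal differentiation libraries, and Il33 is low in differentiation libraries of all 3 regions.

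Il33, on chromosome 19 (29902514 to 29938118, mm39), fell with differentiation in all 3 regions. Proximal organoids had 6.81, 2.63 and 3.12 FPKM in differentiation medium, against 24.8, 26.4 and 24.8 FPKM in control medium. Mid organoids had 2.36, 4.08 and 2.14 FPKM in differentiation medium, against 16.3, 17.0 and 13.7 FPKM in control medium. Distal organoids had 0.678, 0.963 and 9.38 FPKM in differentiation medium, against 22.6, 27.9 and 14.7 FPKM in control medium. No differentiation library reached any control library, although distal replicate 3 stood well above its 2 replicates. The log2 fold change was -2.43 ± 0.50 in proximal (adjusted p = 0.00095), -2.14 ± 0.50 in mid (adjusted p = 0.0017) and -2.76 ± 0.50 in distal organoids (adjusted p = 0.00023). No difference in this response between regions was called (adjusted p = 0.86 for any difference among the 3 regions). Without distal differentiation replicate 3, Il33 was lower in distal than in proximal organoids in differentiation medium (log2 -1.43, adjusted p = 0.0024), against -0.59 (adjusted p = 0.41) with it.

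Il1rn was the most abundant of the 10 genes in proximal organoids and took opposite directions by region. It lies on chromosome 2 (24226865 to 24241506, mm39). Proximal organoids had 74.0, 60.3 and 65.9 FPKM in differentiation medium, against 78.3, 118 and 119 FPKM in control medium. Mid organoids had 93.8, 119 and 113 FPKM in differentiation medium, against 59.3, 59.1 and 73.0 FPKM in control medium. Distal organoids had 44.5, 54.1 and 78.0 FPKM in differentiation medium, against 60.4, 30.1 and 55.1 FPKM in control medium. The proximal differentiation libraries lay below their controls, the mid ones above theirs, and the distal groups overlapped. Il1rn fell in proximal organoids (log2 -0.63 ± 0.25, adjusted p = 0.044) and rose in mid organoids (0.76 ± 0.25, adjusted p = 0.015), and the distal difference was 0.30 ± 0.25 (adjusted p = 0.31). The mid response exceeded the proximal one by 1.38 ± 0.35 (adjusted p = 0.019). Scaled to summed reads, the mid difference was 0.33 (adjusted p = 0.30), and the proximal call was lost on leaving out any 1 of 9 of the 18 libraries (adjusted p 0.051 to 0.14), among them replicates 2 and 3 of both proximal groups. The difference between the responses was 1.29 without proximal control replicate 2 (adjusted p = 0.054) and 1.28 without proximal control replicate 3 (adjusted p = 0.053). In control medium Il1rn was lower in distal than in proximal organoids (log2 -1.13 ± 0.25, adjusted p = 0.0070), and not called when only those groups entered the model (adjusted p = 0.091).

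Tslp was at the limit of detection. The reads behind its values numbered 1, 13 and 14 in mid differentiation libraries, against 3, 1 and 1 in mid control libraries. In distal organoids there were 6, 11 and 15 reads in differentiation medium, against 0, 3 and 3 in control medium. In proximal organoids 1 read was found in 1 of 3 differentiation libraries, and none in the control libraries, which allows up to 3 reads over that group. The reads were most numerous in distal and mid differentiation libraries, and the mid media overlapped through mid differentiation replicate 1 while the distal media did not overlap. Tested without the filter, the difference was 0.56 ± 0.13 in distal (adjusted p = 0.0046) and 0.40 ± 0.13 in mid organoids (adjusted p = 0.030).

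Cxcl5 and Cxcl1, both on chromosome 5 and both encoding neutrophil attractants binding CXCR2, differed in their regional pattern. Cxcl5 (90907219 to 90909483, mm39) had 1.94, 2.43 and 11.3 FPKM in distal differentiation libraries, against 13.8, 20.7 and 18.2 FPKM in distal control libraries. Mid organoids had 2.29, 3.33 and 4.33 FPKM in differentiation medium, against 5.75, 9.32 and 12.04 FPKM in control medium. Proximal organoids had 0.259, 0.257 and 0.363 FPKM in differentiation medium, against 0.276, 0.596 and 0.417 FPKM in control medium. Levels were highest in distal control libraries and under 1 FPKM in every proximal library, and the media overlapped in proximal organoids only. Cxcl5 fell with differentiation in distal (log2 -1.88 ± 0.40, adjusted p = 0.00079) and mid organoids (-1.19 ± 0.40, adjusted p = 0.016), and the proximal difference was -0.14 ± 0.40 (adjusted p = 0.79). The mid call was lost without mid control replicate 3 (-0.98, adjusted p = 0.071) and without mid differentiation replicate 1 (-1.01, adjusted p = 0.067).

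In control medium Cxcl5 was 40.9 times as high in distal and 21.0 times as high in mid as in proximal organoids (log2 3.69 ± 0.40, adjusted p = 1.2e-05, and 2.77 ± 0.40, adjusted p = 0.00023). In differentiation medium the distal mean was 17.8 times and the mid mean 11.3 times the proximal mean (log2 1.95, adjusted p = 0.0017, and 1.71, adjusted p = 0.0044). With only the compared groups in the model the distal call in differentiation medium was lost (adjusted p = 0.051). The distal response was 1.74 log2 units below the proximal one and not called (-1.74 ± 0.56, adjusted p = 0.072). Without distal differentiation replicate 3, which held the 11.3 FPKM, this difference was -2.39 (adjusted p = 0.00049), and it was also called scaled to summed reads (-2.02, adjusted p = 0.045) and with the replicate block (-1.74, adjusted p = 0.031). With voom it did not reach an unadjusted p under 0.05. Over all alternatives the difference ran from -2.39 to -1.36, with adjusted p up to 0.44. The proximal values were all under 1 FPKM, where log2(FPKM + 1) understates a change.

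Cxcl1 (91039100 to 91040974, mm39) was low everywhere and showed no called difference between regions. Proximal organoids had 0.193, 0.383 and 0.331 FPKM in differentiation medium, against 0.892, 2.25 and 2.10 FPKM in control medium. Distal organoids had 0.494, 0.193 and 0.772 FPKM in differentiation medium, against 1.08, 0.918 and 3.37 FPKM in control medium. Mid organoids had 0.315, 0.936 and 1.36 FPKM in differentiation medium, against 0.885, 1.42 and 3.22 FPKM in control medium. Proximal and distal media did not overlap, and the mid media did. Cxcl1 fell in proximal (log2 -1.04 ± 0.34, adjusted p = 0.018) and distal organoids (-0.82 ± 0.34, adjusted p = 0.048), and the mid difference was -0.56 ± 0.34 (adjusted p = 0.17). The distal call was lost on leaving out any 1 of 10 of the 18 libraries, with adjusted p 0.053 to 0.26, the highest without distal control replicate 3. In proximal organoids Cxcl1 was no longer called on leaving out control replicate 2 (-0.90, adjusted p = 0.071) or control replicate 3 (-0.93, adjusted p = 0.063).

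Cxcl16, a membrane-bound ligand of CXCR6 that ADAM10 can release, was the most abundant of the 6 chemokines in proximal organoids. It lies on chromosome 11 (70344809 to 70350810, mm39). Distal organoids had 13.1, 8.92 and 17.6 FPKM in differentiation medium, against 30.7, 22.3 and 44.7 FPKM in control medium. Mid organoids had 10.6, 14.1 and 21.7 FPKM in differentiation medium, against 24.6, 33.8 and 37.9 FPKM in control medium. Proximal organoids had 19.99, 35.0 and 30.5 FPKM in differentiation medium, against 31.3, 37.4 and 43.8 FPKM in control medium. Differentiation libraries lay below control libraries in distal and mid organoids and overlapped them in proximal organoids. Cxcl16 fell in distal (log2 -1.23 ± 0.30, adjusted p = 0.0024) and mid organoids (-1.04 ± 0.30, adjusted p = 0.0075). The proximal difference was -0.41 ± 0.30 (adjusted p = 0.27), and -0.72 when scaled to summed reads (adjusted p = 0.040). In differentiation medium Cxcl16 was lower in distal than in proximal organoids (-1.07 ± 0.30, adjusted p = 0.015), but not called on leaving out proximal differentiation replicate 2 (adjusted p = 0.062) or distal differentiation replicate 2 (adjusted p = 0.081). It was also lower in mid than in proximal organoids (-0.86 ± 0.30, adjusted p = 0.044), a call that 9 of the 18 libraries each ended when left out (adjusted p 0.051 to 0.19).

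Ccl25, the ligand of CCR9 known for drawing T cells to the small intestine, was highest in proximal differentiation libraries. It lies on chromosome 8 (4375210 to 4410020, mm39). Proximal differentiation libraries had 1.96, 3.36 and 2.09 FPKM, against 0.924, 0.727 and 0.642 FPKM in proximal control libraries. Mid organoids had 1.05, 1.21 and 0.888 FPKM in differentiation medium, against 0.841, 0.666 and 0.833 FPKM in control medium. Distal organoids had 0.969, 0.853 and 0.972 FPKM in differentiation medium, against 0.483, 0.719 and 0.563 FPKM in control medium. Each differentiation group lay above its control group without overlap, by the widest margin in proximal organoids. Ccl25 rose in proximal organoids (log2 0.96 ± 0.14, adjusted p = 6.2e-05), and the mid difference was 0.20 ± 0.14 (adjusted p = 0.22) and the distal one 0.28 ± 0.14 (adjusted p = 0.089). The distal rise was called with a pseudocount of 0.1 (0.59, adjusted p = 0.037), with voom (0.65, adjusted p = 0.046) and without proximal differentiation replicate 2 (0.28, adjusted p = 0.037). The mid response was 0.75 below the proximal one (-0.75 ± 0.20, adjusted p = 0.023), and the distal one 0.67 below (-0.67 ± 0.20, adjusted p = 0.049). The distal difference was not called with the replicate block (adjusted p = 0.053), with voom (adjusted p = 0.12), or on leaving out any 1 of 16 of the 18 libraries (adjusted p 0.051 to 0.12). The mid one was not called without proximal control replicate 3 (adjusted p = 0.062), proximal control replicate 2 (0.056), mid differentiation replicate 3 (0.057) or mid control replicate 1 (0.054). The gene shares 204 bases with Elavl1 on the opposite strand, which averaged 5.12 FPKM in proximal differentiation and 8.19 FPKM in proximal control libraries, so its values are uncertain by the reads of that stretch.

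Ccl20, the ligand of CCR6 known from the epithelium over lymphoid follicles, did not pass the test in any comparison. On chromosome 1 (83094487 to 83096888, mm39), it had 1.16, 3.66 and 7.49 FPKM in distal differentiation libraries, against 5.55, 8.54 and 2.01 FPKM in distal control libraries. Mid libraries ran between 2.73 and 3.84 FPKM in differentiation medium, against 1.23 and 3.52 FPKM in control medium. Proximal libraries ran between 0.891 and 2.38 FPKM in differentiation medium, against 1.40 and 1.90 FPKM in control medium. The media overlapped in every region, and the distal libraries spread most. In control medium the distal mean was 3.12 times the proximal mean (log2 1.08 ± 0.45, adjusted p = 0.16), and without distal control replicate 3 the difference was 1.55 and called (adjusted p = 0.034). In differentiation medium the distal difference from proximal was 0.71 (adjusted p = 0.26), and 1.23 without distal differentiation replicate 1 (adjusted p = 0.044).

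Counted over the 9 genes tested, differentiation against control medium changed 4 in proximal organoids (1 higher and 3 lower), where 53.8% of all genes tested were called (27.6% higher and 26.2% lower). It changed 6 in mid organoids (3 higher and 3 lower), where 63.5% were called (31.5% higher and 32.0% lower), and 6 in distal organoids (2 higher and 4 lower), where 62.9% were called (31.6% higher and 31.3% lower). The FPKM of the media did not overlap for 4 of the 9 in proximal, 7 in mid and 7 in distal organoids, against 60.2%, 73.3% and 63.4% of all genes. The shares of the 9 genes are near those backgrounds. The median log2 fold change of the 9 genes was -0.14 in proximal, 0.20 in mid and -0.38 in distal organoids, against -0.01, 0.00 and 0.00 over all genes tested. Scaling to summed reads moved the median of all genes to -0.25, -0.33 and -0.34. Of the 12896 genes, 2383 were then higher and 5176 lower in proximal organoids, 2470 and 6004 in mid, and 2396 and 6105 in distal. Of the 9 genes, 1 was then higher and 4 lower in proximal organoids. In mid organoids 2 were higher and 3 lower, and in distal organoids 2 were higher and 4 lower. Without distal differentiation replicate 3 the counts were 4, 6 and 6, and without proximal differentiation replicate 1 they were 4, 6 and 5.

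**Figure D2:**
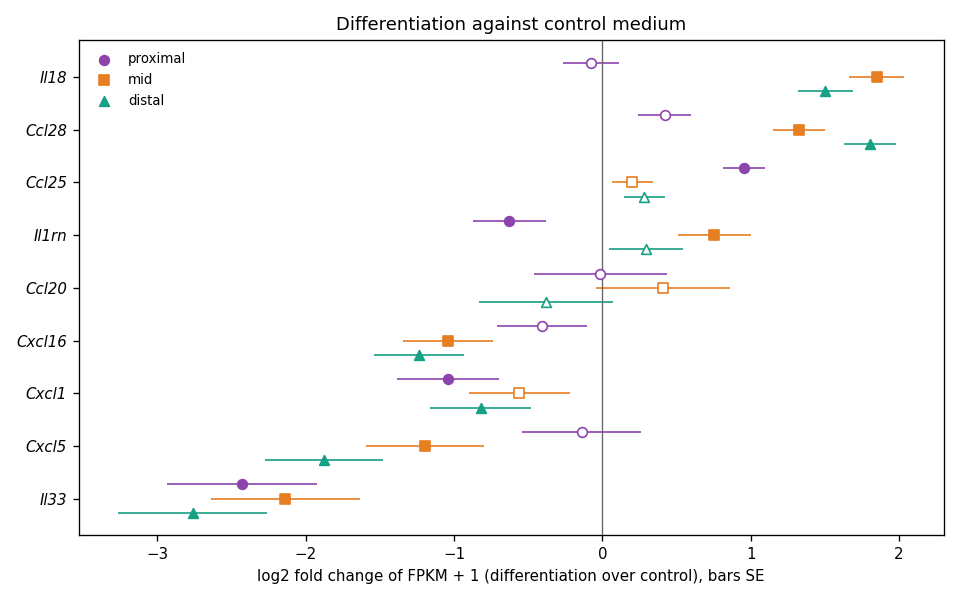
Log2 fold change of FPKM + 1, differentiation over control medium, for the 9 genes tested, by region. Filled symbols are called (adjusted p under 0.05), open ones are not, and bars are SE. Il33 lies left of 0 in all 3 regions, Il18 and Ccl28 lie right of 0 in mid and distal organoids, and Il1rn is on opposite sides in proximal and mid organoids.

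Between regions in differentiation medium, 5 of the 9 genes were called in distal against proximal organoids (3 higher and 2 lower), where 29.9% of all genes were (15.6% higher and 14.3% lower), and 6 in mid against proximal organoids (4 higher and 2 lower), where 29.4% were (15.6% higher and 13.7% lower). In control medium the counts were 4 in distal (3 higher and 1 lower), where 10.5% of all genes were called (5.57% higher and 4.98% lower), and 3 in mid against proximal organoids (3 higher and 0 lower), where 13.3% were called (7.99% higher and 5.28% lower). These counts too are a description, as the genes were chosen with earlier results of these data known. Il18, Ccl28 and Cxcl5 were the genes higher in all 4 comparisons, which share the proximal libraries within each medium. Il1rn was also higher in mid organoids in differentiation medium (log2 0.69, adjusted p = 0.047), and that call was lost with TMM factors (adjusted p = 0.055) and on leaving out any 1 of 12 libraries (adjusted p 0.053 to 0.13). Ccl25 was lower in distal (-0.82, adjusted p = 0.00038) and mid (-0.74, adjusted p = 0.00096) than in proximal organoids in differentiation medium. Distal against mid organoids gave 0 calls among the 9 genes in either medium by limma and by voom, where 0.690% of all genes were called in differentiation medium and 0.326% in control medium. At an unadjusted p under 0.05, limma gave 1 gene in differentiation medium (Il1rn, -0.90 ± 0.25) and 2 in control medium (Cxcl5, 0.92 ± 0.40, and Ccl28, -0.46 ± 0.18). The response to the medium differed from the proximal one for 3 genes in distal (8.24% of all genes) and 4 in mid organoids (12.0%), and among the 3 regions for 4 (9.59%), which were Il18, Ccl28, Ccl25 and Il1rn. Of these 4 the call among regions was lost for Il1rn on leaving out any 1 of 12 libraries (adjusted p 0.053 to 0.13) and for Ccl25 any 1 of 10 (0.051 to 0.11). Ccl28 was not called among regions with voom (adjusted p = 0.71), scaled to summed reads (0.077) or at pseudocount 0.1 (0.32).

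**Figure D3:**
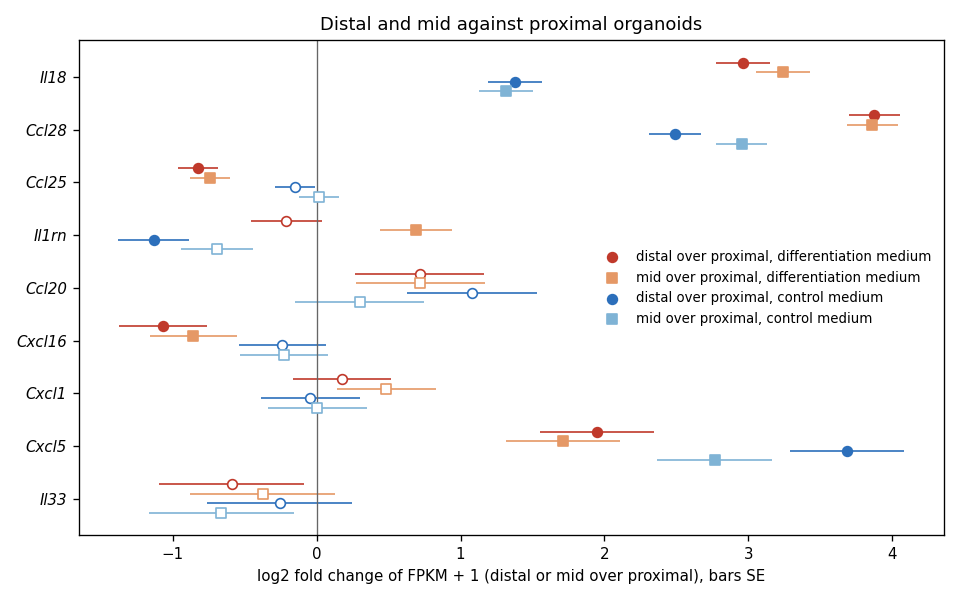
Log2 fold change of FPKM + 1, distal or mid over proximal organoids, in each medium, for the 9 genes tested. Filled symbols are called (adjusted p under 0.05), open ones are not, and bars are SE. Il18, Ccl28 and Cxcl5 lie right of 0 in all 4 comparisons, and Ccl25 and Cxcl16 lie left of 0 in differentiation medium.

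The receptors of these ligands were mostly absent. Of 14 receptors and binding partners 5 passed the filter, and no library exceeded 1.04 FPKM for the other 9, which include Cxcr2, Cxcr6, Ccr6, Ccr9, Ccr10, Ccr3, Il1rl1, Il7r and Il18bp. Both chains of the IL-18 receptor fell with differentiation. Il18rap, the signalling chain, averaged 0.164 FPKM in proximal differentiation and 7.75 FPKM in proximal control libraries (log2 -2.84, adjusted p = 2.0e-05). It averaged 0.436 FPKM in mid differentiation and 7.40 FPKM in mid control libraries (-2.52, adjusted p = 2.9e-05), and 0.311 FPKM in distal differentiation and 7.32 FPKM in distal control libraries (-2.52, adjusted p = 3.2e-05). No differentiation library came near a control library. Il18r1, the ligand-binding chain, averaged 1.52 FPKM in proximal differentiation and 8.76 FPKM in proximal control libraries (log2 -1.89, adjusted p = 0.0022). It averaged 0.748 FPKM in mid differentiation and 5.50 FPKM in mid control libraries (-1.84, adjusted p = 0.0019), and 0.613 FPKM in distal differentiation and 4.77 FPKM in distal control libraries (-1.67, adjusted p = 0.0038). Crlf2, a chain of the TSLP receptor, rose in proximal (log2 0.67, adjusted p = 0.0044), mid (1.06, adjusted p = 8.2e-05) and distal organoids (0.47, adjusted p = 0.026). In distal organoids Crlf2 overlapped between media and its call was lost with voom, when scaled to summed reads, and on leaving out distal control replicate 2 or distal differentiation replicate 1 or 3 (adjusted p 0.072 to 0.14). Il1rap fell in proximal organoids (-0.50, adjusted p = 0.039), a call lost on leaving out any 1 of 5 of the 6 proximal libraries (0.059 to 0.14). Il1r1, with -0.22 in proximal, -0.39 in mid and -0.35 in distal organoids, was not called, and without proximal differentiation replicate 1 it was lower in proximal (adjusted p = 0.029) and mid organoids (adjusted p = 0.037).

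Of 17 genes that process these cytokines or form inflammasomes 16 were tested. In each region 12 were higher, 0 lower and 4 not called. Of all genes 27.6% were higher in proximal, 31.5% in mid and 31.6% in distal organoids. In all 3 regions 10 were called, for which the share of all genes was not computed. This list and those below, like the 10 genes, were chosen with earlier results of these data known, so the counts are a description. Scaled to summed reads the split was 9 higher and 2 lower in proximal and 7 higher and 2 lower in both mid and distal organoids. Of the 12896 genes, that scaling called 2383 higher in proximal, 2470 in mid and 2396 in distal organoids, and 5176, 6004 and 6105 lower. Casp1, whose protease matures IL-18, averaged 50.3 FPKM in proximal differentiation and 13.9 FPKM in proximal control libraries (log2 1.77). It averaged 98.4 and 15.9 FPKM in mid differentiation and mid control libraries (2.56), and 85.6 and 13.5 FPKM in distal differentiation and distal control libraries (2.59), with no overlap between media. Nlrp6, an inflammasome sensor of the gut epithelium, averaged 32.5, 51.4 and 55.7 FPKM in proximal, mid and distal differentiation libraries, against 7.35, 10.8 and 3.86 FPKM in the controls of the same regions (log2 2.24, 2.17 and 3.42). Nlrp1b, another sensor, averaged 0.934, 7.501 and 5.14 FPKM in proximal, mid and distal differentiation libraries, against 0.0689, 0.313 and 0.177 FPKM in the controls (log2 0.85, 2.70 and 2.38). In proximal organoids Casp1 was called and Il18 was not.

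**Figure D4:**
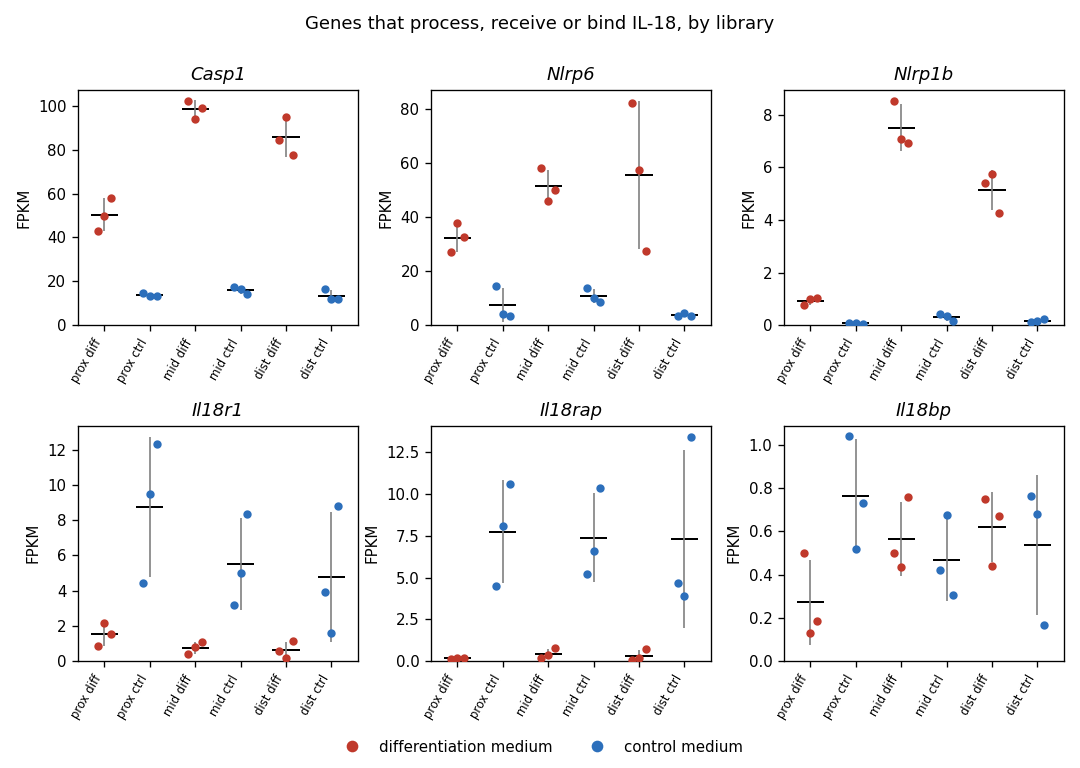
FPKM of 6 genes that process, sense upstream of, receive or bind IL-18 in the 18 libraries, by region (prox, mid, dist) and medium (diff, differentiation; ctrl, control), with means as lines and SD as grey bars (n = 3), not drawn below 0. Casp1, Nlrp6 and Nlrp1b are higher, and Il18r1 and Il18rap lower, in differentiation than in control libraries of the same region, in all 3 regions. Nlrp1b is at most 1.04 FPKM in proximal libraries.

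The lists that follow are read against all genes tested, of which 27.6% were higher with 26.2% lower (proximal), 31.5% with 32.0% (mid) and 31.6% with 31.3% (distal). Counts scaled to summed reads are read against 2383 of the 12896 genes higher with 5176 lower (proximal). The mid background was then 2470 with 6004, and the distal one 2396 with 6105. Among 27 other chemokines 6 passed the filter. Those called were 2 higher with 1 lower (proximal), 1 with 2 (mid) and 2 with 3 (distal), and scaled to summed reads 1 with 1, 1 with 3 and 1 with 3. Cx3cl1, fractalkine, rose in all 3 regions. It averaged 24.0, 49.4 and 50.2 FPKM in proximal, mid and distal differentiation libraries, against 16.6, 15.2 and 14.4 FPKM in the controls (log2 0.50, 1.65 and 1.75). Of 26 other cytokines 14 were tested, with 7 lower and 1 higher in proximal organoids. Mid organoids had 8 lower and 3 higher, and distal organoids 7 lower and 3 higher. Il34, a ligand of the CSF1 receptor, fell (log2 -2.58, -1.63 and -2.11 in proximal, mid and distal organoids), as did Tgfb1 (-0.83, -1.68 and -1.55), while Il15, which sustains intraepithelial lymphocytes, rose (1.32, 1.56 and 1.16). Of 22 receptors and adaptors for inflammatory signals 19 were tested, and those called were 9 higher with 3 lower (proximal), 13 with 3 (mid) and 12 with 4 (distal). Scaled to summed reads these were 6 with 3, 9 with 5, and 7 with 6. Il17rc rose (1.86, 2.47 and 2.44), Ifngr1 rose (1.25, 1.52 and 1.89), and Tnfrsf1b fell (-1.54, -1.12 and -0.98). Of 20 genes of NF-kappaB signalling 18 were tested, and those called were 6 higher with 6 lower (proximal), 6 with 4 (mid) and 7 with 5 (distal), near the shares of all genes. Scaled to summed reads these were 3 with 9, 4 with 9, and 5 with 9. Icam1, a target of the pathway, fell (-0.58, -0.96 and -1.75), while Tnip1, an inhibitor, rose (0.59, 1.17 and 1.51), as did Birc3 (0.63, 0.75 and 1.42). The proximal call of Tnip1 was lost on leaving out proximal control replicate 1 or 2 or proximal differentiation replicate 2 or 3 (adjusted p 0.053 to 0.16).

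Markers of cell types moved with the media as well, and their part in the values above was not tested. Goblet cell markers summed to 1060 to 1714 FPKM in proximal differentiation and 64.3 to 179 FPKM in proximal control libraries. They summed to 2175 to 3612 FPKM in mid differentiation and 289 to 437 FPKM in mid control libraries, and to 1734 to 2254 FPKM in distal differentiation and 121 to 235 FPKM in distal control libraries. Crypt stem cell markers summed to 11.4 to 25.4 FPKM in proximal differentiation and 105 to 110 FPKM in proximal control libraries, 10.6 to 13.5 and 99.0 to 108 FPKM in mid differentiation and mid control libraries, and 6.77 to 13.3 and 88.9 to 94.0 FPKM in distal differentiation and distal control libraries. Colonocyte markers summed to 13188 to 23442 FPKM in proximal, 17343 to 20777 FPKM in mid and 16002 to 22473 FPKM in distal differentiation libraries. These ranges overlapped, and control libraries reached at most 2274 FPKM. In differentiation medium 4 of the 6 were higher in distal (median log2 2.52) than in proximal organoids, and 4 in mid organoids (2.67). Of all genes tested 15.6% were higher in each of these comparisons. In control medium 2 of the 6 were higher in distal and 2 in mid organoids, against 5.57% and 7.99% of all genes. Cycling cell markers summed to 43.0 to 99.3 FPKM in proximal differentiation and 55.2 to 128 FPKM in proximal control libraries, which overlapped. They summed to 35.6 to 38.6 FPKM in mid differentiation and 165 to 216 FPKM in mid control libraries, and to 28.4 to 64.5 FPKM in distal differentiation and 117 to 197 FPKM in distal control libraries. Of the 6 cycling markers, 3 were called lower in proximal (median log2 -1.34), 6 in mid (-3.35) and 5 in distal organoids (-3.31). In each region 0 were higher, and 26.2%, 32.0% and 31.3% of all genes tested were lower. Enteroendocrine markers summed to 13.2 to 17.9 FPKM in proximal differentiation and 1.06 to 3.73 FPKM in proximal control libraries, and to 72.6 to 116 FPKM in mid differentiation and 17.2 to 28.9 FPKM in mid control libraries. In distal organoids they summed to 37.6 to 75.1 FPKM in differentiation and 5.30 to 17.1 FPKM in control libraries. Of the 5 enteroendocrine markers tested, 4 were higher in mid than in proximal organoids in each medium. In distal organoids 2 were higher than in proximal ones in differentiation medium and 1 in control medium. The shares of all genes are those given for the colonocyte markers. The fibroblast marker that passed the filter, Pdgfrb, averaged 6.07 FPKM in distal differentiation and 0.235 FPKM in distal control libraries (log2 2.28, adjusted p = 7.6e-05), and 2.84 FPKM in mid differentiation and 0.267 FPKM in mid control libraries (1.59, adjusted p = 0.0014). In differentiation medium it was higher in distal (1.80, adjusted p = 0.0016) and mid (1.16, adjusted p = 0.026) than in proximal organoids, where it averaged 0.766 FPKM. Of the 2 immune markers that passed the filter, Csf1r fell in proximal (log2 -0.60), mid (-0.75) and distal organoids (-1.07), and Cd68 fell in mid organoids (-0.87), with -0.35 in proximal and -0.28 in distal organoids not called.

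The genes with the most similar pattern were sought among 11025 protein-coding genes by Pearson's r of log2(FPKM + 1) over the 18 libraries, which share 6 groups, as a description. For Ccl28 they were Pde3a (r = 0.99), Adh1 (0.98) and Thbs4 (0.98), and for Il18 they were Capn13, Tgm3 and St3gal6 (0.97, 0.97 and 0.96). For Il33 they were Ipo4, Myc and Knop1 (0.98, 0.97 and 0.97), and for Cxcl5 Hoxa9, Tdrd1 and Hoxa6 (0.94, 0.94 and 0.93). Cxcl1 was closest to Serpinb8, Rbms1 and Egfr (0.95 each), Cxcl16 to Phldb2, S100a11 and Lpcat4 (0.96 each), and Ccl25 to Igdcc4, Cyp4b1 and Anpep (0.96, 0.95 and 0.95). Ccl20 and Il1rn had no such close match, with Ssbp3 (0.81) and Tiam2 (0.79) first.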

How the data were processed

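The authors deposited 1 FPKM value per gene and library, with gene length and mm39 positions, per the file headers. HISAT2 2.0.5, featureCounts 1.5.0-p3 and the build mm39 are named in the submitters' processing notes. The sources used here do not state how libraries were scaled or whether strand was kept. The library size implied by the FPKM differed from the summed reads, and by medium. It was 1.15 to 1.20 times the summed reads in control libraries and 0.757 to 1.04 times in differentiation libraries. The authors' 6 group mean columns equal the means of the 3 libraries and were not used.

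FPKM times gene length fell on whole reads (tolerance 0.001), and these reads served for depth and for alternatives. log2(FPKM + 1) of genes with at least 1 FPKM in at least 3 libraries was fitted with limma 3.58.1 (R 4.3.3). The fit had 6 group means over 18 libraries, 12 residual degrees of freedom, an intensity trend and Benjamini-Hochberg adjustment over all 12896 genes. On simulated data with independent noise and few changed genes, only the medium comparison in distal organoids was tried. The region and interaction tests were not tried on simulated data. The members and gene lists were chosen with earlier results of these data known. All members and all receptors are named; from each other list, up to 3 genes with the largest change among those called in all 3 regions, and per member the 3 genes of most similar pattern. Alternatives were filters, pseudocount, scaling, the groups in the model, a replicate block, leaving out each library, and voom, which was added after seeing the data. Labels share replicate numbers, and over 27 pairs of same-numbered libraries deviations correlated at -0.387 to 0.542, with 15 over 0.1. Every pair was over 0.1 only for differentiation against control in distal organoids and for distal against mid organoids in control medium, where the block changed no call among the members. Promoters are from RefSeq, GRCm38.p6. Tools were Python 3.11.15, numpy 2.4.6, pandas 2.3.3 and matplotlib 3.10.9.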

Additional observations from a re-analysis of the deposited data

Results flagged for a closer look

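The response of 4 genes to the medium differed between regions by the limma interaction test, and the values are differences of log2 responses. Against proximal organoids, the distal response of Il18 was 1.58 higher and its mid response 1.92 higher. The Ccl28 response was 1.38 higher in distal and 0.91 higher in mid organoids. The Il1rn response was 1.38 higher in mid organoids. The Ccl25 response differed by -0.67 in distal and -0.75 in mid organoids. Only Il18 kept these calls in every alternative setting. Neither Ccl28 difference was called with a pseudocount of 0.1 or with voom (adjusted p 0.18 to 0.87). The mid Ccl28 call was also lost scaled to summed reads, without the filter, and on leaving out any 1 of 6 libraries. The Il1rn call was lost without proximal control replicate 2 or 3. The distal Ccl25 call was lost on leaving out any 1 of 16 of the 18 libraries, and the mid one any 1 of 4.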

How the results depend on the processing

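Of 2775 values of the members under alternatives, 2622 kept their side of the threshold, among them 48 uncalled values that changed sign, 132 lost a call, 21 gained one and 0 called values reversed. Cxcl1 and Ccl25, at most 3.37 and 3.36 FPKM, did not pass the filter of 5 FPKM and were not tested under it. Counts that moved were these. Members called were 2 for the medium in proximal organoids (filter 5 FPKM), 3 for distal against proximal in differentiation medium and 5 for mid against proximal in control medium (only the groups compared), 1 for the distal against proximal response (pseudocount 0.1, and voom), and for any difference among responses 2 (no filter), 1 (pseudocount 0.1), 2 (summed reads) and 1 (voom). With only the groups compared, genes called were 2020 and 795 for distal against proximal in differentiation and control medium, 7 and 5 for distal against mid, and 523 for the distal against proximal response, where voom gave 657. Distal against mid gave 56 and 6 (filter 5 FPKM), 164 and 74 (no filter), and 59 and 20 (pseudocount 0.1) in differentiation and control medium.

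Leaving out each library gave these ranges of genes called: distal against mid 43 to 129 in differentiation and 14 to 69 in control medium, distal against proximal in control medium 810 to 1553, mid against proximal in control medium 921 to 2139, the distal response 617 to 1304, the mid response 943 to 1834 and any response 689 to 1463. Members called ran from 2 to 5 for the medium in proximal organoids, for the mid response and for any response.

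Deviations of same-numbered libraries correlated at 0.034 to 0.259 between the media of a region, and at -0.387 to 0.542 between regions. The main test used no block. With the replicate block, genes called for the medium numbered 7128 (proximal), 8337 (mid) and 8250 (distal), against 6938, 8187 and 8110 without it. Among members the block ended the distal Ccl25 response call (adjusted p = 0.053) and gave one to Cxcl5 (adjusted p = 0.031). The planned edgeR and DESeq2 tests were not run. The deposited unit is FPKM, although whole reads could be recovered from it, and voom was run on those reads instead. The test among 3 regions has no value with only the groups compared. Depth limits Tslp, with at most 15 reads in a library. The causes of these changes were not tested.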
